A study of Mus musculus with 9 samples.

Results

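The elastic fibre genes described here are 10 genes of the mouse genome, Eln, Lox, Loxl1, Fbn1, Fbn2, Ltbp4, Mfap4, Fbln2, Fbln5 and Efemp2, out of 54986 gene IDs in the files. They were picked by gene name with their levels in these same libraries known. Their differences between the groups are therefore given as descriptions without a test. Total RNA was sequenced in 9 libraries of mouse primary embryonic fibroblasts (strain C57BL/6), 3 with Zscan4f overexpression, 3 with Zscan4f3A overexpression and 3 controls. All 9 carry D4-OSKM-2ndMEFs in their titles. OSKM is the usual name for the reprogramming factors Pou5f1, Sox2, Klf4 and Myc, so the controls share that label with the other groups. The labels do not explain D4, the sequence change in Zscan4f3A or the way of delivery, and no vector or added gene stands in the control titles. Nothing states that the 3 libraries of a group came from separate cultures, so p-values measure the spread between these libraries, which may be technical.

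Elastic fibres give skin, lung and artery walls their recoil. Fibroblasts and smooth muscle cells secrete tropoelastin, which is laid down on a scaffold of fibrillin microfibrils with the help of fibulins and of a latent TGF-beta binding protein. It is then made insoluble by cross-links that copper-dependent lysyl oxidases start on its lysines. The promoters of Fbln5 and Efemp2, which encode fibulins that assemble elastin, are shown because the first listed window of each lies fully outside the annotated gene. In capitals are matches on either strand to the SP1 GC box (GGGCGG), the SMAD box (CAGAC) and the CCAAT box (CCAAT). The windows are the 250 bases before a RefSeq start site on GRCm38.p6, at chr12:101819120-101819369 (minus strand) for Fbln5 and chr19:5473696-5473945 (plus strand) for Efemp2.
Fbln5: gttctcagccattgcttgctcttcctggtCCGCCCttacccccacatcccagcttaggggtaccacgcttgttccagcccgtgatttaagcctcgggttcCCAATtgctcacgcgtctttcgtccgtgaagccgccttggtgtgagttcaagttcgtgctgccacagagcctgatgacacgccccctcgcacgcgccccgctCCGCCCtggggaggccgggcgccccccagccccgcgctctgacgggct
Efemp2: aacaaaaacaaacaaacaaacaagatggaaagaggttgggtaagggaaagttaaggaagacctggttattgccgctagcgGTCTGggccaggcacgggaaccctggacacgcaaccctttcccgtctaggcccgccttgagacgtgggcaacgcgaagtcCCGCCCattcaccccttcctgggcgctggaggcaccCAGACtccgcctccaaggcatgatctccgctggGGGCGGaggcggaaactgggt

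The Fbln5 window held 2 GC boxes, 221 and 48 bases before the start site, and a CCAAT box at 150. The Efemp2 window held 2 GC boxes, at 90 and 21 bases, and 2 SMAD boxes, at 170 and 54. Of 32851 windows of the same length over all genes, 32.7% held a GC box, 42.2% a SMAD box and 33.8% a CCAAT box. Windows were used for 5 of the 10 members (Fbn1, Fbln2, Fbln5, Ltbp4 and Efemp2), 10 windows in all. Any windows on chromosome 18, where Lox and Fbn2 lie, were left out. No window was available for Eln, Loxl1 and Mfap4, the members that differed most with Zscan4f, so nothing is said of their promoters. None of the 10 windows held the AP-1 site TGANTCA (6.75% of all windows) or the motif TGCACAC known for Zscan4 (3.67%). The TATA box TATAAA (12.4%) was absent too. Some windows of Ltbp4 and of Efemp2 overlap each other, so the 10 are not separate sequences. A match or its lack describes only the letters of these windows.

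The libraries held 3.31 to 8.39 gigabases of aligned sequence, the least in Zscan4f3A replicate 3. Levels are in TPM, a share of all transcripts that is corrected for transcript length, and errors after ± are the SD of 3 libraries. Zscan4f itself was at 558 to 570.0 TPM in Zscan4f libraries, 654 to 836 TPM in Zscan4f3A libraries and at most 0.960 TPM in controls. The 10 fibroblast markers all passed the filter on low values (1 TPM in 3 libraries), with sums of 12760.0 to 12940.0 TPM with Zscan4f, 12370.0 to 12580.0 TPM with Zscan4f3A and 12230.0 to 12490.0 TPM in controls.

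Elastin differed most among the 10 members. Eln, which encodes it, was at 19.3, 20.6 and 20.3 TPM with Zscan4f, 76.4, 73.0 and 77.8 TPM with Zscan4f3A and 84.8, 78.6 and 80.6 TPM in controls. All 3 Zscan4f libraries lay far below the other 6, and the Zscan4f3A libraries lay just below the controls without overlap. The Zscan4f mean was 0.247 of the control mean, a log2 fold change of -1.97 (SE 0.05) on the log2(TPM + 1) scale, and 0.265 of the Zscan4f3A mean, a log2 fold change of -1.86 (SE 0.05). The Zscan4f3A mean was 0.931 of the control mean, a log2 fold change of -0.10 (SE 0.05). By mean level Eln ranked 7298 among 15837 tested genes with Zscan4f, 2372 with Zscan4f3A and 2186 in controls. The gene lies on chromosome 5, 134702593 to 134747323 (minus strand; positions are those of the files and, for Eln, equal those of GRCm38). It overlaps by 282 bases a locus that did not exceed 0.0425 TPM in any library.

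**Figure D1:**
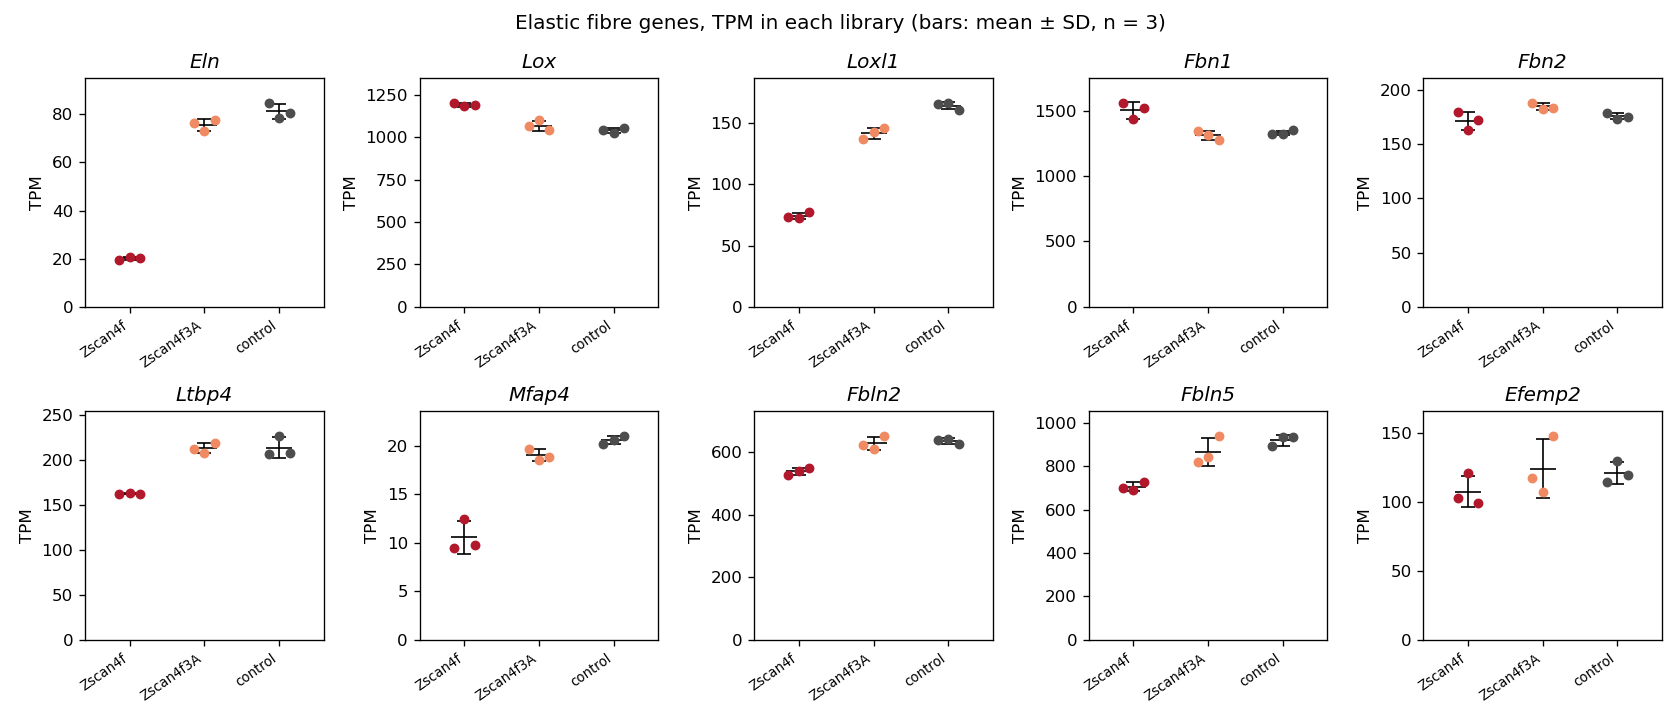
TPM of each of the 10 elastic fibre genes (vertical axes, each from 0) in the Zscan4f, Zscan4f3A and control libraries, with points for single libraries and bars for the mean ± SD of 3. Eln, Loxl1 and Mfap4 have their 3 Zscan4f points well below the other 6, while Lox and Fbn1 have them above.

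Of the lysyl oxidases, Loxl1 was lower with Zscan4f and Lox slightly higher. Loxl1 (chromosome 9, 58287738 to 58313186), which is needed for elastic fibre renewal in mice, was at 73.0, 72.1 and 77.0 TPM with Zscan4f, 137, 142 and 146 TPM with Zscan4f3A and 165, 166 and 161 TPM in controls. The 3 groups did not overlap, with Zscan4f lowest and the controls highest. The log2 fold change was -1.14 (SE 0.04) for Zscan4f against control, -0.93 (SE 0.04) for Zscan4f against Zscan4f3A and -0.21 (SE 0.04) for Zscan4f3A against control. Lox (chromosome 18, 52516069 to 52529867), which acts on both collagen and elastin, was at 1203, 1183 and 1189 TPM with Zscan4f, 1064, 1099 and 1041 TPM with Zscan4f3A and 1044, 1024 and 1052 TPM in controls. The Zscan4f libraries were above all others, and the Zscan4f3A and control libraries overlapped. The log2 fold change was 0.20 (SE 0.03) for Zscan4f against control and 0.16 (SE 0.03) for Zscan4f against Zscan4f3A. As a percentage of the TPM of Lox in the same library, Loxl1 was at 6.21% ± 0.227 with Zscan4f, 13.3% ± 0.646 with Zscan4f3A and 15.8% ± 0.481 in controls (SD, n = 3 each). The summed level of both was 1266 ± 10.3 TPM with Zscan4f, 1210.0 ± 27.9 TPM with Zscan4f3A and 1204 ± 11.9 TPM in controls, and most of it was Lox in every group.

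Among the microfibril genes Mfap4 and Ltbp4 were lower with Zscan4f, Fbn1 was slightly higher, and Fbn2 overlapped the controls. Fbn1 (chromosome 2, 125300594 to 125507993), which encodes the main fibrillin, was at 1560.0, 1433 and 1518 TPM with Zscan4f, 1345, 1317 and 1277 TPM with Zscan4f3A and 1322, 1325 and 1349 TPM in controls. All Zscan4f libraries lay above the others, with a log2 fold change of 0.17 (SE 0.04) for Zscan4f against control and 0.20 (SE 0.04) for Zscan4f against Zscan4f3A. Gm9913 overlaps Fbn1 on the other strand by 2793 bases and did not exceed 3.90 TPM. Fbn2 (chromosome 18, 58008623 to 58209926), a fibrillin best known from embryonic microfibrils, was at 179.5, 163 and 172 TPM with Zscan4f, 188, 183 and 184 TPM with Zscan4f3A and 179, 173 and 175 TPM in controls. The Zscan4f and control libraries overlapped, and the Zscan4f3A libraries were the highest. As a percentage of the TPM of Fbn1, Fbn2 was at 11.4% ± 0.0851 with Zscan4f, 14.1% ± 0.257 with Zscan4f3A and 13.2% ± 0.298 in controls.

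Mfap4 (chromosome 11, 61485431 to 61488900), a glycoprotein of microfibrils that binds tropoelastin, was the least abundant member. It was at 9.42, 12.5 and 9.73 TPM with Zscan4f, 19.7, 18.5 and 18.8 TPM with Zscan4f3A and 20.2, 20.6 and 21.02 TPM in controls. The 3 groups did not overlap, and Zscan4f replicate 2 was the highest of its group. The log2 fold change was -0.92 (SE 0.10) for Zscan4f against control, -0.80 (SE 0.10) for Zscan4f against Zscan4f3A and -0.11 (SE 0.10) for Zscan4f3A against control. Mapk7 overlaps Mfap4 on the other strand by 89 bases. Whether reads were counted by strand is not stated, so reads in overlaps on opposite strands cannot be assigned to either gene. Mapk7 itself was at 20.6 ± 1.66 TPM with Zscan4f and 22.6 ± 1.23 TPM in controls (adjusted p = 0.557 by limma).

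Ltbp4 (chromosome 7, 27305136 to 27337692), a latent TGF-beta binding protein that promotes the deposition of elastin, was at 162, 163 and 162 TPM with Zscan4f, 212, 208 and 219 TPM with Zscan4f3A and 206, 227 and 208 TPM in controls. The Zscan4f libraries were within 1 TPM of each other and below all the rest, while the other groups overlapped. The log2 fold change was -0.39 (SE 0.04) for Zscan4f against control and -0.39 (SE 0.04) for Zscan4f against Zscan4f3A. Summed over Fbn1, Fbn2, Ltbp4 and Mfap4, the level was 1848 ± 71.0 TPM with Zscan4f, 1730.0 ± 33.7 TPM with Zscan4f3A and 1742 ± 12.7 TPM in controls. Relative to Fbn1 in the same library, Eln amounted to 1.34% ± 0.0977 with Zscan4f, 5.77% ± 0.287 with Zscan4f3A and 6.11% ± 0.264 in controls. Mfap4 amounted to 0.705% ± 0.144 with Zscan4f, 1.45% ± 0.0362 with Zscan4f3A and 1.55% ± 0.0167 in controls, and Ltbp4 to 10.8% ± 0.489 with Zscan4f, 16.2% ± 0.801 with Zscan4f3A and 16.03% ± 0.943 in controls.

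**Figure D2:**
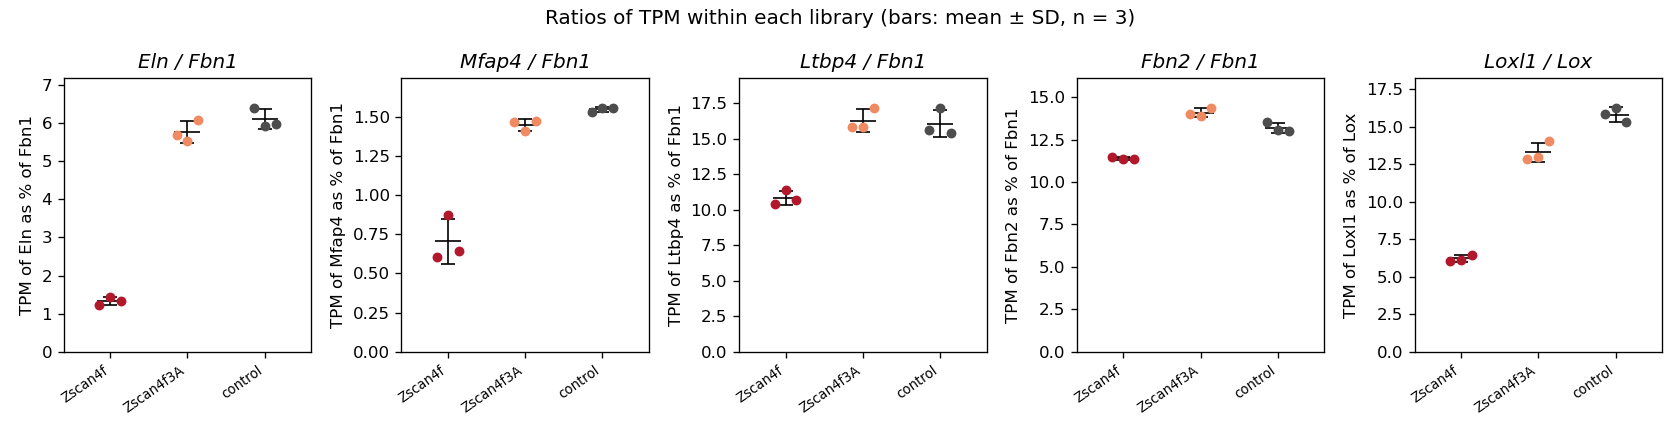
TPM of a gene as a percentage of that of another in the same library (vertical axes from 0) for the Zscan4f, Zscan4f3A and control libraries, with points for libraries and bars for the mean ± SD of 3. The Zscan4f points are the lowest in all 5 panels. The 3 groups are apart in the panels of Loxl1 to Lox, Mfap4 to Fbn1 and Fbn2 to Fbn1, the last with Zscan4f3A highest.

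The fibulins Fbln5 and Fbln2 were moderately lower with Zscan4f. Fbln5 (chromosome 12, 101746565 to 101819055), whose product tethers tropoelastin to microfibrils and to integrins, was at 701, 690.1 and 728 TPM with Zscan4f, 818, 844 and 940.2 TPM with Zscan4f3A and 892, 933 and 933 TPM in controls. The Zscan4f libraries lay below all others, while Zscan4f3A replicate 3 was the highest of all 9 and replicates 1 and 2 of that group were below the controls. The log2 fold change was -0.38 (SE 0.05) for Zscan4f against control, -0.29 (SE 0.05) for Zscan4f against Zscan4f3A and -0.09 (SE 0.05) for Zscan4f3A against control. Without Zscan4f3A replicate 3, the library of lowest depth, the last was -0.15. Fbln2 (chromosome 6, 91212455 to 91272540), a fibulin of basement membranes and elastic fibres, was at 528, 541 and 549.8 TPM with Zscan4f, 624, 612 and 652 TPM with Zscan4f3A and 639.6, 642 and 625 TPM in controls. Here too the Zscan4f libraries were below the rest, with a log2 fold change of -0.24 (SE 0.03) for Zscan4f against control and -0.22 (SE 0.03) for Zscan4f against Zscan4f3A.

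Efemp2 (chromosome 19, 5473973 to 5481853), which encodes fibulin-4, a protein that brings lysyl oxidase to tropoelastin, was at 103, 120.4 and 98.8 TPM with Zscan4f, 117, 107 and 148 TPM with Zscan4f3A and 114, 129.6 and 119.6 TPM in controls. All 3 groups overlapped, and Zscan4f3A replicate 3 was again the highest library. Efemp2 had the widest error of the members, with a log2 fold change of -0.18 (SE 0.12) for Zscan4f against control. For Zscan4f against Zscan4f3A it was -0.20 (SE 0.12), and -0.07 without Zscan4f3A replicate 3. For Zscan4f3A against control it was 0.02 (SE 0.12), and -0.11 without that library. As a percentage of the TPM of Fbln5 in the same library, Fbln2 was at 76.4% ± 1.72 with Zscan4f, 72.7% ± 3.42 with Zscan4f3A and 69.2% ± 2.38 in controls, and Efemp2 at 15.2% ± 2.005 with Zscan4f, 14.2% ± 1.52 with Zscan4f3A and 13.2% ± 0.634 in controls. For both ratios the Zscan4f mean was the highest, and the Zscan4f and Zscan4f3A libraries overlapped. The 3 fibulins together held 1353 ± 22.5 TPM with Zscan4f, 1621 ± 103 TPM with Zscan4f3A and 1676 ± 30.2 TPM in controls.

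All 10 members passed the filter on low values. In 6 of them every Zscan4f library lay below every control library, as in 19.2% of the 15837 genes tested, and in 2 (Lox and Fbn1) every Zscan4f library lay above, as in 19.0%. For Zscan4f against Zscan4f3A, 7 members lay below without overlap, where 16.5% of genes did, and 2 above, where 18.3% did. For Zscan4f3A against control, 3 members (Eln, Loxl1 and Mfap4) lay below, where 9.09% of genes did, and 1 (Fbn2) above, where 6.29% did. These contrasts were known when the members were chosen, so nothing is read from the counts. The median log2 fold change of the members was -0.31 for Zscan4f against control, -0.26 for Zscan4f against Zscan4f3A and -0.02 for Zscan4f3A against control. Over all tested genes the medians were -0.00290, 0.00210 and -0.01 in the same order. Any pair of these comparisons shares a group of libraries. The 10 members summed to 4487 ± 77.1 TPM with Zscan4f, 4637 ± 58.0 TPM with Zscan4f3A and 4704 ± 31.6 TPM in controls.

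**Figure D3:**
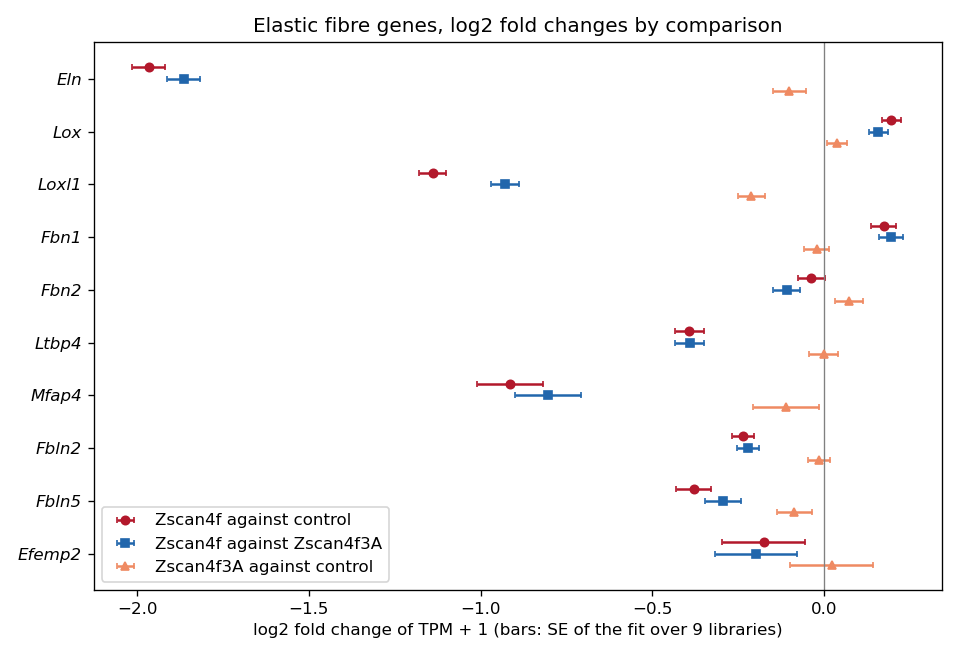
Log2 fold changes of TPM + 1 (horizontal axis) with their SE for the 10 members, 1 line each, in the 3 comparisons. Eln reaches -1.97 for Zscan4f against control, Lox and Fbn1 lie right of 0 when Zscan4f is set against either other group, and the triangles for Zscan4f3A against control lie between -0.21 and 0.07.

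The files also give the mean read depth over each gene. Divided by the library's depth and set against FPKM (fragments per kilobase of transcript, scaled to library size), its size as a percentage was 46.5% to 47.1% for Eln and 17.9% to 18.8% for Fbln2 over the 9 libraries. For Eln it was 46.5% to 46.6% with Zscan4f, 46.7% to 47.1% with Zscan4f3A and 46.6% to 47.1% in controls, a near constant share. It varied most for Efemp2, with 50.4% to 57.2% with Zscan4f, 40.8% to 53.2% with Zscan4f3A and 50.5% to 52.1% in controls. The lowest value was that of Zscan4f3A replicate 3, in which Efemp2 also had its highest TPM. Fbln5 likewise had its lowest share (46.1%) and its highest TPM in that library. With coverage in place of TPM, the log2 fold change of Efemp2 was -0.07 for Zscan4f against Zscan4f3A and -0.06 for Zscan4f3A against control. The part of this share in the levels was not tested further.

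Other genes of elastic fibres were read from a longer list, which was also drawn up with earlier results of these libraries known, so its counts are not independent evidence of a direction. Of 64 listed genes 54 passed the filter on low values, and with Zscan4f against control 22 were lower and 5 higher at an adjusted p under 0.05 by limma. That is 50% of the 54, beside 18.5% of all genes (9.71% lower and 8.74% higher). With Zscan4f against Zscan4f3A, 20 were lower and 5 higher, or 46.3%, beside 15.1% of all genes (7.64% lower and 7.48% higher). With Zscan4f3A against control 0 were called by limma, beside 0.0316% of all genes (0.0126% lower and 0.0189% higher), and 10 (18.5%) had an unadjusted p under 0.05, beside 8.77% of all genes. The median log2 fold change of the 54 was -0.10 for Zscan4f against control, -0.04 for Zscan4f against Zscan4f3A and -0.03 for Zscan4f3A against control.

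Of 14 tested components of microfibrils and fibres, 8 fell and 2 rose with Zscan4f against control, or 71.4%, beside 18.5% of all genes. Ltbp2, a microfibril protein of the latent TGF-beta binding protein family, was at 22.1, 18.6 and 22.3 TPM with Zscan4f, 46.8, 43.0 and 46.9 TPM with Zscan4f3A and 52.7, 49.9 and 50.01 TPM in controls. All 3 Zscan4f libraries were below the rest, and it fell by 1.24 on the log2 scale against control (SE 0.07, adjusted p = 1.67e-05 by limma). Efemp1, which encodes fibulin-3, averaged 174 ± 3.01 TPM with Zscan4f, 218 ± 4.40 TPM with Zscan4f3A and 247 ± 8.49 TPM in controls (adjusted p = 4.02e-05 by limma for Zscan4f against control). Mfap5, a microfibril glycoprotein, averaged 66.5 ± 12.4 TPM with Zscan4f, 109.6 ± 12.7 TPM with Zscan4f3A and 118 ± 13.7 TPM in controls (adjusted p = 0.00386 by limma for Zscan4f against control). Ltbp3, the proteoglycans Bgn and Hspg2, fibronectin (Fn1) and Emilin2 also fell, Ltbp3 to 97.8 ± 1.70 TPM with Zscan4f, against 137 ± 5.71 TPM in controls. Dcn, the collagen-binding proteoglycan decorin, rose to 1756 ± 9.45 TPM with Zscan4f, against 1236 ± 14.1 TPM in controls (log2 fold change 0.51, SE 0.04, adjusted p = 4.23e-05 by limma). Ltbp1 rose to 197 ± 2.99 TPM with Zscan4f, against 178 ± 4.91 TPM in controls (adjusted p = 0.0199 by limma), so the family of latent TGF-beta binding proteins moved in both directions. Mfap2, a core microfibril glycoprotein, was at 76.0 ± 6.96 TPM with Zscan4f and 83.9 ± 5.13 TPM in controls (adjusted p = 0.234 by limma).

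The call of Emilin2 was lost without any 1 of the control replicates 1 and 2 and the 3 Zscan4f libraries, and its adjusted p by limma was 0.0206 to 0.110 over all alternatives. That of Ltbp1 was lost without control replicate 1 or 2 or Zscan4f replicate 1 or 3, with a range of 0.00327 to 0.0713. That of Hspg2 was lost without control replicate 1, with a range of 0.00869 to 0.0509.

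Of 7 tested genes of cross-linking and copper supply, 3 fell and 1 rose with Zscan4f against control, or 57.1%, beside 18.5% of all genes. Loxl2, a lysyl oxidase known to act on collagen IV, was at 148, 147 and 145 TPM with Zscan4f, 220.3, 214 and 219 TPM with Zscan4f3A and 224, 235 and 231 TPM in controls. The Zscan4f libraries lay below all others, and it fell by 0.64 on the log2 scale against control (SE 0.03, adjusted p = 5.07e-06 by limma) and by 0.57 against Zscan4f3A (SE 0.03, adjusted p = 1.65e-05 by limma). Loxl3, another lysyl oxidase, fell to 18.1 ± 1.16 TPM with Zscan4f, against 28.8 ± 1.78 TPM in controls (adjusted p = 0.00034 by limma). Loxl4, the remaining family member, was at 31.2 ± 2.44 TPM with Zscan4f and 28.2 ± 1.22 TPM in controls (adjusted p = 0.185 by limma). Bmp1, the protease that activates lysyl oxidase precursors, fell to 132 ± 4.75 TPM with Zscan4f, against 162 ± 3.63 TPM in controls (adjusted p = 0.00121 by limma). Slc31a1, which takes up copper, rose to 52.4 ± 1.76 TPM with Zscan4f, against 41.9 ± 0.795 TPM in controls (adjusted p = 0.00180 by limma). Atp7a, which supplies copper to lysyl oxidases, was at 25.5 ± 3.07 TPM with Zscan4f and 25.0 ± 0.255 TPM in controls (adjusted p = 0.900 by limma).

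Of the ADAMTS family factors of microfibrils, 3 of 8 fell with Zscan4f against control and 0 rose, or 37.5%, beside 18.5% of all genes. Adamts10, which binds fibrillin-1, averaged 17.1 ± 0.726 TPM with Zscan4f, 37.1 ± 2.97 TPM with Zscan4f3A and 38.7 ± 0.394 TPM in controls (log2 fold change -1.14, SE 0.06, adjusted p = 1.08e-05 by limma for Zscan4f against control). Adamtsl3 fell to 7.92 ± 0.445 TPM with Zscan4f, against 10.5 ± 0.441 TPM in controls (adjusted p = 0.00827 by limma). Adamtsl5 had 59.4 ± 3.40 TPM with Zscan4f and 73.3 ± 5.46 TPM in controls (adjusted p = 0.0335 by limma). Its call was lost without control replicate 1 or 2 or Zscan4f replicate 1 or 2, with an adjusted p of 0.0100 to 0.110 by limma over all alternatives.

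Of the enzymes that degrade elastin and their inhibitors, 4 of 10 were tested and 3 fell with Zscan4f against control. That is 75% of the 4 tested, beside 18.5% of all genes. Mmp2, a gelatinase, fell to 111 ± 8.08 TPM with Zscan4f, against 197 ± 8.22 TPM in controls (log2 fold change -0.82, SE 0.06, adjusted p = 5.68e-05 by limma). The lysosomal cathepsins fell too, Ctsk to 94.0 ± 4.15 TPM with Zscan4f, against 141 ± 2.71 TPM in controls (adjusted p = 8.66e-05 by limma) and Ctsl to 710.4 ± 101 TPM with Zscan4f, against 1033 ± 74.3 TPM in controls (adjusted p = 0.00663 by limma). Mmp7, Mmp9, Mmp12, Ctss, Elane and the inhibitor Slpi were at 0.886 TPM or below in every library, and Mmp7 and Elane were listed at 0 throughout.

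Of 9 tested receptor and chaperone genes 2 rose and 1 fell with Zscan4f against control, or 33.3%, beside 18.5% of all genes. The elastin receptor complex of Glb1, Neu1 and Ctsa had 0 calls of 3 by limma, with an adjusted p of 0.232, 0.199 and 0.255 for Zscan4f against control. Itgb8, an integrin subunit, rose to 18.4 ± 0.912 TPM with Zscan4f, against 13.6 ± 1.09 TPM in controls (adjusted p = 0.00435 by limma). Itgb1, the most widely shared integrin beta subunit, fell to 806 ± 13.0 TPM with Zscan4f, against 904 ± 12.2 TPM in controls (adjusted p = 0.00356 by limma). In Zscan4f3A libraries Itgb1 was at 822 ± 17.0 TPM, again with every library below every control. Its log2 fold change was -0.17 (SE 0.03) for Zscan4f against control and -0.14 (SE 0.03, adjusted p = 0.299 by limma) for Zscan4f3A against control. It was not called for Zscan4f against Zscan4f3A (log2 fold change -0.03, SE 0.03, adjusted p = 0.539 by limma). Lgals3, the lectin galectin-3, rose to 205 ± 36.0 TPM with Zscan4f, against 114 ± 3.46 TPM in controls (adjusted p = 0.00335 by limma).

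Of 12 listed genes of the TGF-beta signal, which raises elastin expression in fibroblasts, and of elastin gene regulation, 4 fell with Zscan4f and 0 rose. That is 33.3% of them, beside 18.5% of all genes. With Zscan4f3A against control 0 were called by limma, but 5 (41.7%) had an unadjusted p under 0.05, beside 8.77% of all genes. The median log2 fold change of the 12 was -0.08 for Zscan4f against control and -0.11 for Zscan4f3A against control. Tgfb3, a ligand, was at 29.4, 30.8 and 31.0 TPM with Zscan4f, 52.1, 49.6 and 46.4 TPM with Zscan4f3A and 55.0, 54.6 and 57.4 TPM in controls. The Zscan4f libraries were the lowest (log2 fold change -0.85, SE 0.05, adjusted p = 1.8e-05 by limma for Zscan4f against control). Every Zscan4f3A library of Tgfb3 was also below every control (log2 fold change -0.17, SE 0.05, adjusted p = 0.455 by limma). The ligand Tgfb1 was at 44.1 ± 1.79 TPM with Zscan4f and 39.5 ± 1.61 TPM in controls (adjusted p = 0.154 by limma). Tgfb2 was at 30.3 ± 0.835 TPM with Zscan4f and 32.3 ± 1.13 TPM in controls (adjusted p = 0.226 by limma). With Zscan4f3A Tgfb2 was at 28.5 ± 0.408 TPM, every library below every control (log2 fold change -0.17, SE 0.05, adjusted p = 0.413 by limma). Smad3, a signal transducer of the pathway, fell to 21.8 ± 0.259 TPM with Zscan4f, against 32.7 ± 0.594 TPM in controls (adjusted p = 0.000135 by limma). Smad3 was at 28.4 ± 1.36 TPM with Zscan4f3A, every library below every control. The log2 fold change of Zscan4f3A against control was -0.20 (SE 0.05, adjusted p = 0.392 by limma). For Zscan4f against Zscan4f3A it was -0.37 (SE 0.05, adjusted p = 0.00177 by limma). Smad2, a relative of Smad3, was at 32.0 ± 1.502 TPM with Zscan4f and 33.0 ± 0.276 TPM in controls (adjusted p = 0.597 by limma). Smad2 was at 29.2 ± 1.00 TPM with Zscan4f3A, every library below every control (log2 fold change -0.18, SE 0.05, adjusted p = 0.436 by limma). The receptor Tgfbr2 fell to 123 ± 4.04 TPM with Zscan4f, against 138 ± 1.88 TPM in controls (adjusted p = 0.0111 by limma). In Zscan4f3A libraries it was at 126 ± 1.77 TPM, with every library below every control (log2 fold change -0.13, SE 0.04, adjusted p = 0.417 by limma against control). Tgfbr2 was not called for Zscan4f against Zscan4f3A (log2 fold change -0.04, SE 0.04, adjusted p = 0.468 by limma). Igf1, a growth factor known to raise elastin expression in smooth muscle cells, fell to 28.4 ± 2.59 TPM with Zscan4f, against 51.8 ± 3.00 TPM in controls (adjusted p = 0.000112 by limma).

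**Figure D4:**
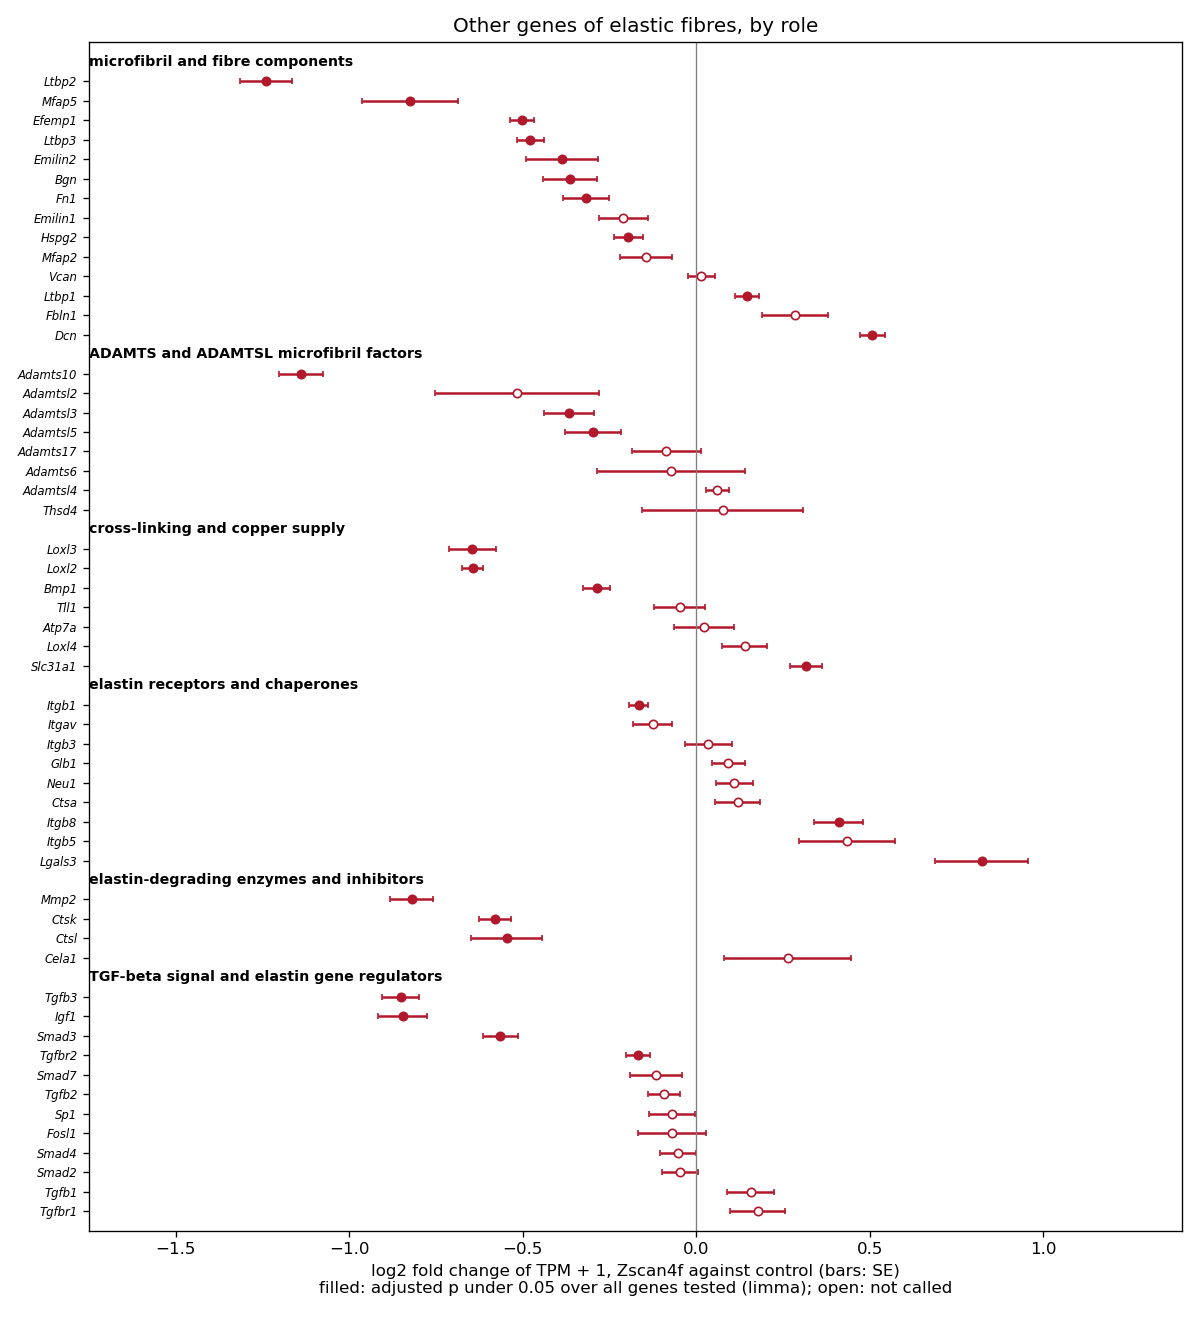
Log2 fold change of TPM + 1 for Zscan4f against control (horizontal axis, bars are SE) for the 54 tested genes of elastic fibres outside the 10 members, in blocks by role. Filled points were called by limma at an adjusted p under 0.05, 22 left of 0 and 5 right of it, and open points were not called.

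Markers of cell types also differed between the groups. With Zscan4f against control 12 of the 34 tested markers rose and 11 fell at an adjusted p under 0.05 by limma. That is 67.6% of them, beside 18.5% of all genes (9.71% lower and 8.74% higher). Of 9 tested epithelial markers 7 rose and 1 (Krt5) fell with Zscan4f against control, and the list of 10 summed to 317 to 322 TPM with Zscan4f, 148 to 153 TPM with Zscan4f3A and 134 to 138 TPM in controls. Of the 10 fibroblast markers 3 (Col1a2, Pdgfra and Dcn) rose and 5 (Col1a1, Col3a1, Pdgfrb, Vim and Postn) fell. Dcn also stands in the longer list of elastic fibre genes, so its rise is counted in both lists. Of 8 tested smooth muscle markers 4 (Acta2, Tagln, Cnn1 and Myh11) fell and 0 rose. That list of 9 summed to 1847 to 1946 TPM with Zscan4f, 2276 to 2304 TPM with Zscan4f3A and 2176 to 2323 TPM in controls, and Myocd, a master regulator of smooth muscle, stayed below 1 TPM in every library. Of 7 endothelial markers Pecam1, Cdh5, Kdr and Emcn stayed below 1 TPM and Cldn5 was listed at 0. That list summed to 46.2 to 47.6 TPM with Zscan4f, 33.0 to 34.6 TPM with Zscan4f3A and 30.9 to 33.8 TPM in controls, nearly all of it Tek, which rose. Of 6 macrophage markers Ptprc, Adgre1, Csf1r and Aif1 stayed below 1 TPM, Cd68 rose, and the sum was 21.5 to 23.9 TPM with Zscan4f, 15.6 to 17.4 TPM with Zscan4f3A and 14.6 to 17.2 TPM in controls. Of 7 chondrocyte markers Acan, Matn1, Matn3 and Col9a1 stayed below 1 TPM and Sox9 fell. The sum was 185 to 208 TPM with Zscan4f, 179.9 to 229 TPM with Zscan4f3A and 176 to 196 TPM in controls. Nearly all of it was Col2a1, at 195 ± 12.7 TPM with Zscan4f and 179 ± 9.985 TPM in controls (adjusted p = 0.467 by limma). With Zscan4f3A against control 0 of the 34 tested markers were called by limma, and 6 (17.6%) had an unadjusted p under 0.05, beside 8.77% of all genes. The part of other cell types in the levels of elastic fibre genes was not tested, and in bulk RNA fewer cells of a kind and less RNA per cell cannot be told apart.

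The nearest tested protein-coding genes on each side of a member, and those overlapping it, were read as well, a set chosen after the members' values were seen. Of 22 such genes 3 fell and 2 rose with Zscan4f against control, or 22.7%, beside 18.5% of all genes. Limk1, a kinase gene 13995 bases from Eln, was at 38.3 ± 8.59 TPM with Zscan4f and 39.2 ± 9.16 TPM in controls (adjusted p = 0.958 by limma). Beside Fbln2, Wnt7a, a Wnt ligand, rose to 11.7 ± 0.400 TPM with Zscan4f, against 4.70 ± 1.01 TPM in controls (adjusted p = 0.00104 by limma). On the other side of Fbln2, Hdac11, a histone deacetylase, fell to 12.5 ± 0.961 TPM with Zscan4f, against 18.0 ± 0.777 TPM in controls (adjusted p = 0.0238 by limma).

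Profiles most like those of 3 members were found by the root mean square difference of log2(TPM + 1), each library relative to the control mean, over the 9 libraries and among 10682 protein-coding genes. Nearest to Eln were Olfml1 (0.149), Capn6 (0.150), Ociad2 (0.157), Gria1 (0.162) and Tenm3 (0.168), with the difference in log2 units in parentheses. Capn6, a calpain that lacks protease activity, averaged 25.2 ± 1.47 TPM with Zscan4f, 78.7 ± 1.95 TPM with Zscan4f3A and 98.0 ± 5.03 TPM in controls. Tenm3, a transmembrane teneurin, averaged 20.7 ± 1.94 TPM with Zscan4f, 62.2 ± 1.16 TPM with Zscan4f3A and 77.8 ± 2.46 TPM in controls. Nearest to Fbln2 were Tpcn1 (0.0318), Dpy19l3 (0.0329) and Ctsd (0.0356), and nearest to Lox were Atp2a2 (0.0217), Ostc (0.0265) and Gmps (0.0269). These genes were selected for likeness, so their values are descriptions.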

How the data were processed

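Total RNA was extracted with Trizol and made into libraries with a TruSeq kit, per the labels' protocols. HISAT2 2.1.0 and StringTie are named in the submitters' processing notes. The genome build and annotation are not given in the sources used. The deposited TPM, FPKM and coverage signal were made by the authors per gene and library. TPM and FPKM are per transcript length, and coverage is not corrected for depth. Of 54986 gene IDs 54079 were found in GENCODE M21 (GRCm38), 97.7% of them with identical coordinates, as had 7 of the 10 members. Promoters are from RefSeq (GRCm38.p6).

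Aligned sequence per library was derived by comparing coverage with FPKM. The depth behind single values is unknown, so precision is the SD of 3 libraries. Genes with at least 1 TPM in 3 of 9 libraries (15837) were fitted as log2(TPM + 1) with limma 3.58.1 in R 4.3.3 (group means, trended prior variance, two-sided, Benjamini-Hochberg over all genes, threshold 0.05). A fold change on this scale understates that of low genes. The code was tested on simulated data. Figures were made with Python 3.11.15 and matplotlib 3.10.9.

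Members and gene lists were chosen with earlier results of these data known. Named genes are the members, called genes of the list, markers, and the protein-coding genes (mean of at least 5 TPM) most like Eln, Fbln2 and Lox. Genes of the list that were not called, and neighbouring genes, were chosen after their values were seen. Alternatives were another pseudocount, filter, unit, scaling, prior variance and set of samples, a replicate block, each library left out and, chosen after the data were seen, coverage in place of TPM.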

Additional observations from a re-analysis of the deposited data

How the results depend on the processing

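Log2 fold changes of the 10 members in the 3 comparisons were recomputed under 19 alternatives, and 566 of 570 values moved by less than the spread between replicates. The other 4 were Eln with FPKM (-1.88 for Zscan4f against control and -1.80 for Zscan4f against Zscan4f3A), Fbn1 with quantile normalization (0.14 for Zscan4f against Zscan4f3A) and Ltbp4 with coverage (-0.07 for Zscan4f3A against control). Many of the 566 could not move. Another filter or prior variance, the replicate block or fewer groups leaves a difference of group means as it is. So does leaving out a library of the group not compared. The count of 566 therefore overstates how far the values were put to a test. For Zscan4f against control Eln ranged from -2.01 to -1.88, Loxl1 from -1.17 to -1.11 and Mfap4 from -1.03 to -0.82. Of 52 calls among the other genes of elastic fibres 42 held under the 19 alternatives and 10 were lost under some, with 0 changes of sign. Counts of these genes called stayed within 1.5 times throughout. Leaving out 1 library gave 23 to 28 of them for Zscan4f against control, 20 to 25 for Zscan4f against Zscan4f3A and 0 for Zscan4f3A against control. Over all genes it gave 2126 to 3285 calls for Zscan4f against control (2922 with all libraries), 1574 (without Zscan4f replicate 3) to 2168 for Zscan4f against Zscan4f3A (2395 with all) and 1 to 16 for Zscan4f3A against control (5 with all). In the last comparison the count was 16 without Zscan4f3A replicate 3, 10 without Zscan4f replicate 3, 9 and 8 without control replicates 2 and 1, 1 without control replicate 3, and 3 with no filter. Same-numbered replicates did not deviate together (r from -0.079 to 0.053 over 9 pairs). The labels state no pairing, and a low r over all genes cannot exclude one. With the replicate block there were 2504 calls for Zscan4f against control, 1883 for Zscan4f against Zscan4f3A and 1 for Zscan4f3A against control, and 26, 22 and 0 among the other genes of elastic fibres in this order. The cause of these differences was not tested. Depth is lowest in Zscan4f3A replicate 3.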
